A study of Mus musculus with 15 samples.

Results

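Oxidative phosphorylation subunits are described here in mouse NIH 3T3 fibroblasts, an immortalised line, treated with zinc and carrying either an empty plasmid or a plasmid for 1 of 4 C/EBP transcription factors. The members were the probe sets of the Affymetrix MG_74Av2 array that the platform annotation tied to a single symbol starting with Nduf, Uqcr, Atp5, Cox4, Cox5, Cox6, Cox7 or Cox8. They numbered 94 of the 12422 non-control probe sets and stood for 67 genes. Complex I had 29 of the genes, its assembly factors 2, complex III 7, complex IV 15 and complex V 14. Another 7 probe sets with a matching symbol named several genes and were left out. A filter on low signal left 67 of the 94 probe sets, for 60 of the 67 genes, among 6963 probe sets for 5338 genes in all.

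The 15 arrays fell into 5 groups of 3, called vector, alpha, beta, delta and epsilon after the sample titles. The cells of the last 4 groups carried the human cDNA of C/EBPα (alpha), C/EBPβ (beta), C/EBPδ (delta) and C/EBPε (epsilon), respectively, behind the zinc-inducible metallothionein promoter of the plasmid pMT, and vector cells carried pMT with no insert. All groups, vector included, were polyclonal transfectants under G418 selection and had received zinc for 16 h, so no group shows untreated cells. The labels speak of triplicate clones and leave unsaid if the arrays of a group stem from different transfections, so the p-values reflect only how much these 3 cultures vary, which may be technical. In RNA of whole cultures, a change in every cell and a change in a share of the cells cannot be told apart.

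Oxidative phosphorylation is the last stage of respiration in the inner mitochondrial membrane. Complex I takes electrons from NADH, complex III passes them from ubiquinol to cytochrome c, and complex IV hands them to oxygen. The proton gradient that these complexes build drives ATP synthesis by complex V. Most of the subunits are encoded in the nucleus, and the nuclear factors NRF1, GABPA (an ETS protein) and YY1 are known to bind promoters of many of them. C/EBPs are bZIP factors known for their roles in adipocyte, hepatocyte and myeloid differentiation.

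Linear signals per probe set were deposited, already scaled by the authors to 2% trimmed means of 2501.12 to 2501.39. Array medians of 992.25 to 1149.7 were then set equal, giving the scaled units used below. Values under 189.652 units, the 20th percentile, were raised to it, and testing required a signal above 1092.06 units, the median, on 3 or more arrays. Of 12 fibroblast markers 11 were on the array, and 10 of these passed the filter on signal. The summed signal of the 11 was 117300 to 159300 units on the vector arrays, 118200 to 147900 in alpha, 163700 to 221100 in beta, 127000 to 129300 in delta and 146000 to 205100 in epsilon. By limma 3 of the 10 tested were higher and 1 lower in alpha, 5 higher in beta and 3 higher in epsilon cells, with the proteoglycan gene Dcn and the collagen cross-linking enzyme gene Lox higher in all 3 groups. Of all probe sets tested, 7.17%, 5.13% and 9.38% were called higher in alpha, beta and epsilon cells, and 7.15%, 4.18% and 6.91% lower. In delta cells limma called 0 of the 10 markers. By an unadjusted p under 0.05, 2 were higher and 2 lower there, against 4.29% and 2.07% of all probe sets. The median log2 difference of the 10 was -0.15 in alpha, 0.73 in beta, -0.11 in delta and 0.13 in epsilon cells. Of the markers of other cell types on the array, 1 of 5 for adipocytes, 4 of 7 for macrophages and leukocytes, 1 of 5 for epithelium and 2 of 6 for skeletal muscle passed the filter. Among those of macrophages and leukocytes, the lysozyme gene Lyz2 was higher in alpha cells (1.88 log2, limma adjusted p = 0.000474) and the lipopolysaccharide co-receptor gene Cd14 in epsilon cells (1.33, adjusted p = 0.000111). The lysosomal glycoprotein gene Cd68 was lower in alpha (-2.02, adjusted p = 8.79e-08), beta (-1.002, adjusted p = 0.000485) and epsilon cells (-1.47, adjusted p = 4.59e-06). The summed signal of all 7 was 12120 to 13300 units in vector, 12730 to 13510 in alpha, 10860 to 12850 in beta, 10220 to 11900 in delta and 14890 to 15290 in epsilon cells. No tested adipocyte, epithelial or muscle marker was called in any group, and the muscle actin gene Acta1 lay at the floor on all 15 arrays. The part of these markers' differences in the values below was not tested.

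The promoters of the members were searched for the cores of NRF1, ETS proteins and YY1, since these factors are known to bind many of them. The core of the C/EBPs, the factors the plasmids carried, was searched as well. RefSeq promoters (GRCm38.p6; 250 bases before to 50 after a start) were at hand for 55 of the 67 genes, as 60 sequences. The 12 genes without an entry were Atp5a1, Atp5mpl, Cox4i1, Cox6a2, Cox6c, Cox8c, Ndufa2, Ndufb9, Ndufs1, Uqcrb, Uqcrc2 and Uqcrq. On either strand, the NRF1 core GCGCATG lay in 12 of the 60 (20%), against 3.91% of 32851 promoters in the table. The ETS core CCGGAAG lay in 14 (23.3% against 8.86%), the YY1 core AAGATGG in 8 (13.3% against 6.34%) and the C/EBP core TTGCNNAA in 6 (10% against 10.8%). The NRF1 core overlaps itself on the other strand where the letters read GCGCATGCGC, and such a place counts once per promoter. The 8 genes called against vector that had an entry gave 9 promoters, with the NRF1 core in 1 (Uqcrc1), the YY1 core in 2 (Ndufa3 and Ndufa9) and the ETS and C/EBP cores in 0. Of 44 promoters of tested genes not called, 11 held the NRF1 core, 13 the ETS core, 4 the YY1 core and 6 the C/EBP core. The windows printed here run from 220 bases before to 30 after the start, 5′ to 3′ along the gene, with every core that lies whole within them in capitals. Ndufa9 (chr6:126849115-126849364, minus strand) and Ndufv3 (chr17:31519895-31520144, plus strand) are shown because both were called in 3 of the 4 groups. Cox6a1 (chr5:115348929-115349178, minus strand), Uqcr11 (chr10:80406792-80407041, minus strand) and Uqcrh (chr4:116075041-116075290, minus strand) are shown as members with cores that were called in no group against vector.
Ndufa9: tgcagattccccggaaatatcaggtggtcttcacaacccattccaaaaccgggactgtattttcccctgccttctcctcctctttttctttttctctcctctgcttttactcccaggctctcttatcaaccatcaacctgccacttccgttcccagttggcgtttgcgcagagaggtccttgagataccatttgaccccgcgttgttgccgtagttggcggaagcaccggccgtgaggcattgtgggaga
Ndufv3: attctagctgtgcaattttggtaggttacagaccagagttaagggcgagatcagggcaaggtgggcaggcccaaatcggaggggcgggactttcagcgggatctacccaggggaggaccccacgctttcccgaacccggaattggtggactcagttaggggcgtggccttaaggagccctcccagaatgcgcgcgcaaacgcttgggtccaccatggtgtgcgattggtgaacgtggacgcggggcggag
Cox6a1: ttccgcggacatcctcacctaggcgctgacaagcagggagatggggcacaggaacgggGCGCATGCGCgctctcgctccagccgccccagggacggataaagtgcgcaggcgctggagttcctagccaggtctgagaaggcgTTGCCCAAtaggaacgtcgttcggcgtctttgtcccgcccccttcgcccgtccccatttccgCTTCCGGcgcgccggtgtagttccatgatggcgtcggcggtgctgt
Uqcr11: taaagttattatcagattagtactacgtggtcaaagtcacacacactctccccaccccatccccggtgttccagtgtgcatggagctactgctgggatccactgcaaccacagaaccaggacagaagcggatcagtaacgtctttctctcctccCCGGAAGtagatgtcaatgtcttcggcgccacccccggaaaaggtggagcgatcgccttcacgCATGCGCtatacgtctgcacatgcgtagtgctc
Uqcrh: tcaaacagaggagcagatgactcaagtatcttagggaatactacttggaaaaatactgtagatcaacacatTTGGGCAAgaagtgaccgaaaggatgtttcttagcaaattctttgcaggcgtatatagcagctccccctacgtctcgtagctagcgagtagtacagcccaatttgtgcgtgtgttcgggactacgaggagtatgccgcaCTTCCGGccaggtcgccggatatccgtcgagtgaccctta
No core lay whole in the windows of Ndufa9 and Ndufv3, and the YY1 core of Ndufa9 covered bases 30 to 36 after the start, across the window's edge. Uqcrc1, called in epsilon cells, is not shown. Its double NRF1 core covered bases 31 to 40 after the start, beyond such a window. The genes shown were picked, so the display does not show that called genes lack the cores. In Cox6a1 the double NRF1 core covered bases -162 to -153, the C/EBP core -78 to -71 and the ETS core -16 to -10. Uqcr11 had the ETS core at -66 to -60 and an NRF1 core across the start. Uqcrh had a C/EBP core at -149 to -142 and an ETS core at -10 to -4. A match describes these letters and is not a measured site.

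Each C/EBP group was set against vector in 1 fit of limma over all 6963 probe sets, with p-values adjusted by Benjamini-Hochberg within a comparison and a threshold of 0.05. In alpha cells 5 of the 67 member probe sets were higher (7.46%, against 7.17% of all probe sets), in beta cells 6 (8.96%, against 5.13%) and in epsilon cells 9 (13.4%, against 9.38%). The alpha share was close to that of all probe sets with this scaling, and other scalings changed it. Under quantile normalization 15 members were higher in alpha cells, against 9.58% of all probe sets. Under the authors' scaling alone 14 were, against 9.42%, and under scaling by the median log2 ratio 6, against 8.05%. In delta cells limma called 0 (0.359% of all probe sets were higher and 0% lower), and 0 members had an unadjusted p under 0.05 in either direction. Of all probe sets, 4.29% were higher and 2.07% lower by unadjusted p in delta cells. No member was called lower in alpha, beta or epsilon cells, where 7.15%, 4.18% and 6.91% of all probe sets were. Members with an unadjusted p under 0.05 on the lower side numbered 2, 1 and 2 there. These were 2.99%, 1.49% and 2.99%, against 12.4%, 9.36% and 11.5% of all probe sets. On the higher side members numbered 14, 21 and 20, or 20.9%, 31.3% and 29.9%, against 13.4%, 13.6% and 18.1% of all. Counted without a test, all 3 arrays lay above the 3 vector arrays for 13 member probe sets in alpha (19.4%, against 14.4% of all), 17 in beta (25.4%, against 15.5%), 3 in delta (4.48%, against 6.94%) and 15 in epsilon (22.4%, against 18%). They lay below vector for 2 in alpha (2.99%, against 13.7%), 3 in beta (4.48%, against 11.7%), 3 in delta (4.48%, against 4.77%) and 0 in epsilon (against 11.8%). Each of the 4 comparisons uses the same 3 vector arrays. The fit holds no term for the array number, so differences between the numbers stay in its spread. A fit with that term, given at the end, made more member calls in alpha, beta and epsilon cells, some of them lower.

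The absence of lower calls depended on the setting. Uqcrq was called lower in epsilon cells under quantile normalization (-0.20 log2, adjusted p = 0.0309), under the authors' scaling alone (-0.35, adjusted p = 0.00808) and under scaling by the median log2 ratio (-0.36, adjusted p = 0.0256). In alpha cells it was called lower under the last 2 of these (-0.31, adjusted p = 0.0191, and -0.32, adjusted p = 0.0482). Cox6a2 was called lower in beta cells under quantile normalization (-0.83, adjusted p = 0.0469). Leaving out a single array gave lower calls of Cox6b1 without alpha 2 (-1.74, adjusted p = 0.0198), of Atp5k without alpha 3 (-1.58, adjusted p = 0.0172) and of Cox6a2 without beta 1 (-1.12, adjusted p = 0.0178) or epsilon 2 (adjusted p = 0.049).

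The counts moved with single arrays, for which the share of all probe sets is not given here. The 9 calls in epsilon cells became 0 without epsilon 2, 1 without vector 1, 3 without vector 3 and 4 without epsilon 3. The 5 in alpha cells became 1 without vector 3, 2 without alpha 1, and 3 without vector 1, vector 2, alpha 3, beta 3 or delta 3. The 6 in beta cells became 2 without beta 2 or beta 3, 3 without vector 1 or vector 3, 11 without beta 1 and 13 without vector 2.

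As a description of the whole list, the median log2 difference over the 60 tested genes, each read by its brightest tested probe set, was 0.12 in alpha, 0.25 in beta, 0.00 in delta and 0.23 in epsilon cells. Over all 5338 genes it was 0.01, 0.04, 0.01 and 0.08. Of the 60 genes, 38 lay above 0 in alpha, 46 in beta, 32 in delta and 47 in epsilon, that is 63.3%, 76.7%, 53.3% and 78.3%. Among all genes these shares were 50.9%, 55.2%, 52.4% and 59%. The medians moved with single arrays. That of alpha was 0.02 without vector 1 or alpha 3 and 0.21 without vector 2 or alpha 1. That of beta was 0.14 without beta 2 and 0.39 without vector 2, and that of epsilon 0.13 without vector 1 and 0.39 without vector 2. In delta it was -0.08 without vector 1 and 0.10 without vector 2. The members were bright, with 39 of the 67 probe sets in the brightest 20% of those tested. Within that class their medians were 0.18, 0.31, 0.00 and 0.25, against -0.02, 0.03, 0.00 and 0.05 for all its probe sets.

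The arrays of a group spread widely around these medians. Taken from the vector mean, the median member gene stood at -0.15, 0.21 and -0.04 on vector arrays 1, 2 and 3. It stood at 0.02, 0.17 and 0.31 in alpha, 0.06, 0.47 and 0.26 in beta, -0.03, 0.08 and -0.02 in delta and 0.08, 0.44 and 0.27 in epsilon. Every C/EBP group therefore overlapped the vector arrays, and the array numbered 2 was the highest in vector, beta, delta and epsilon. Over all genes, arrays 2 were also the highest in these 4 groups, at 0.13, 0.13, 0.08 and 0.18. Comparing arrays of the same number, the difference from vector was 0.21, 0.26 and 0.29 in beta and 0.23, 0.23 and 0.31 in epsilon for numbers 1, 2 and 3. In alpha it was 0.16, -0.03 and 0.35, and in delta 0.12, -0.12 and 0.02.

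**Figure D1:**
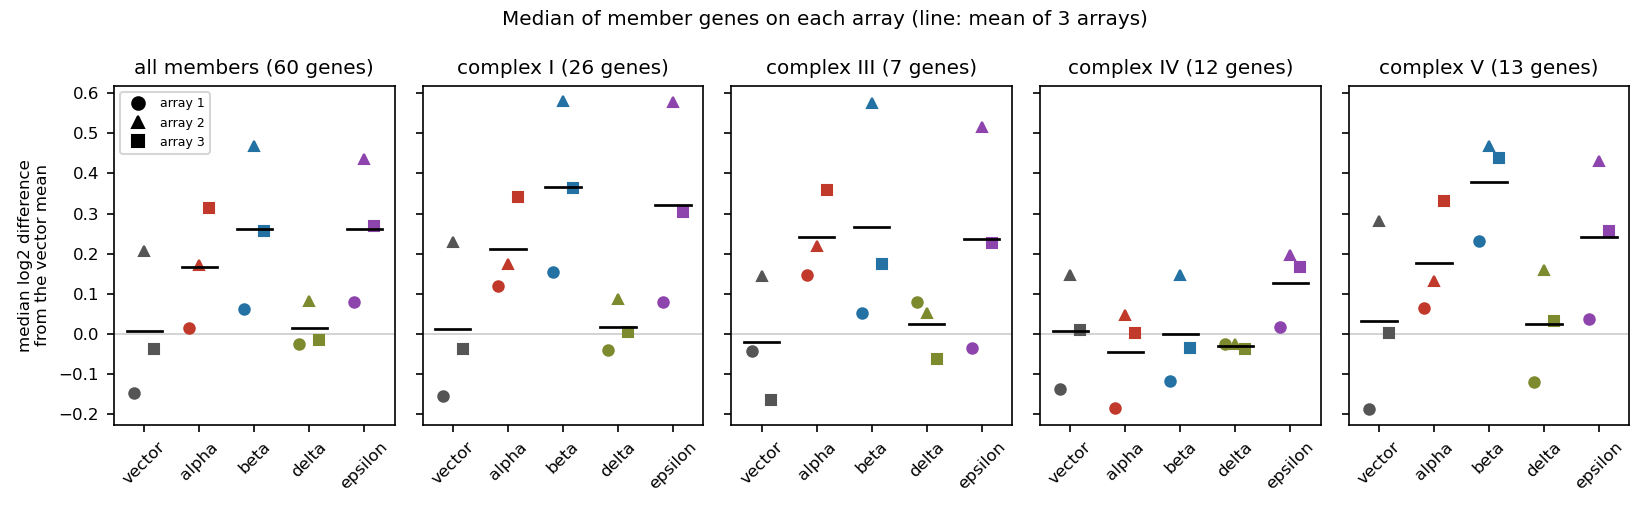
Median log2 difference of the member genes from the vector mean on each of the 15 arrays, for all 60 genes and by complex; circles, triangles and squares are arrays 1, 2 and 3, and the line is the mean of 3 arrays. All groups overlap vector over the 60 genes, and vector 2 stands at 0.21, above the lowest array of every C/EBP group.

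By complex, the subunits of complex I had the median difference of 0.18 in alpha, 0.38 in beta, 0.02 in delta and 0.35 in epsilon cells over 26 genes. Over the 7 complex III genes it was 0.19, 0.31, 0.01 and 0.21. Over the 12 complex IV genes it was -0.05, 0.02, -0.05 and 0.09, and over the 13 complex V genes -0.01, 0.28, 0.01 and 0.18. The complexes were not tested against each other. Probe sets called against vector in any group were 6 of 28 tested in complex I (21.4%), 2 of 7 in complex III (28.6%), 1 of 13 in complex IV (7.69%) and 1 of 17 in complex V (5.88%). Over all 67 members they were 10 (14.9%), against 22% of all probe sets in either direction. All 10 member probe sets were called higher, and the share of all probe sets called higher in any group is not given here.

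**Figure D2:**
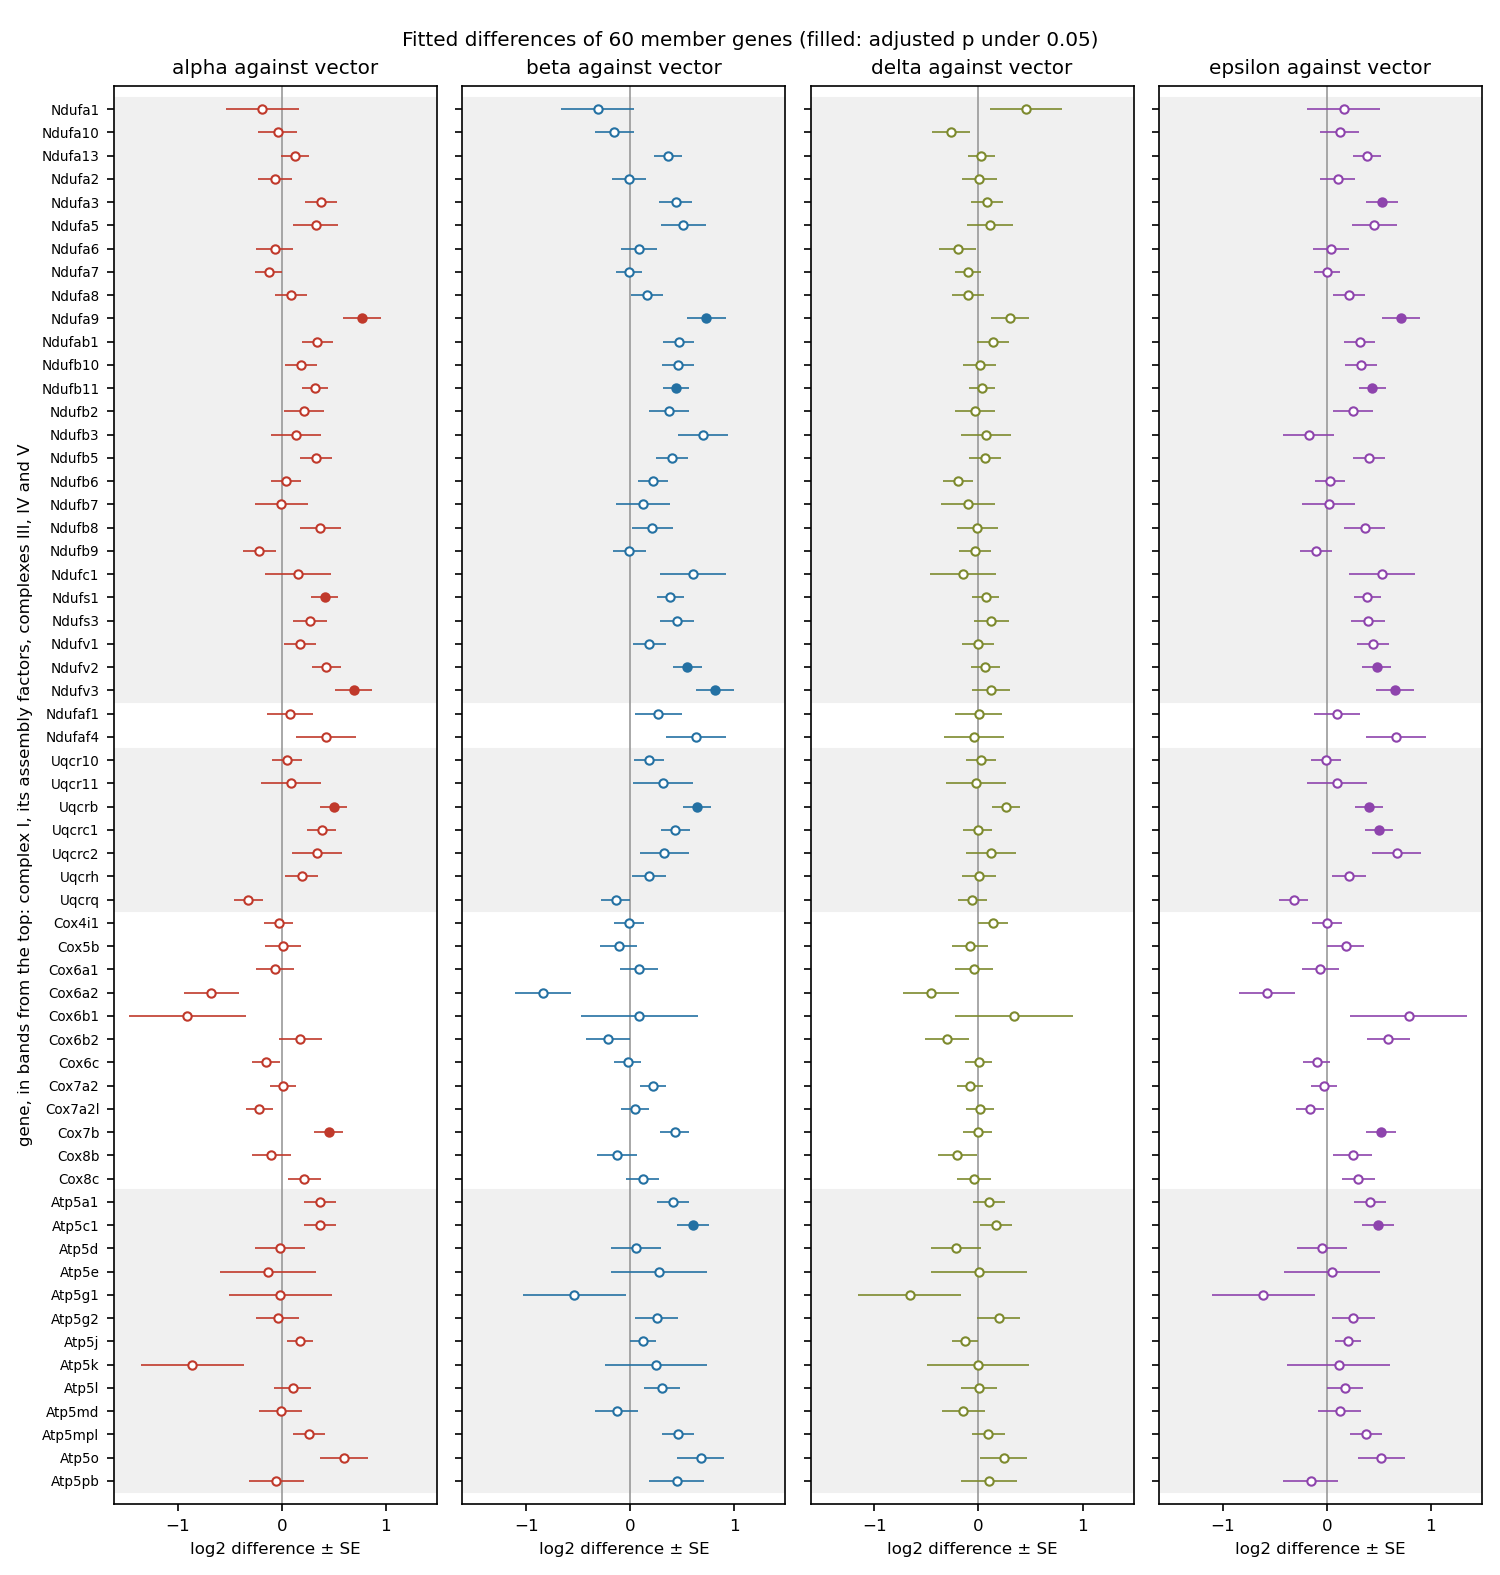
Fitted log2 difference ± SE from vector for each of the 60 tested member genes in alpha, beta, delta and epsilon cells, with filled points for an adjusted p under 0.05. Filled points lie to the right of 0 and there are 5, 6, 0 and 9 of them.

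In complex I, the arm that takes up NADH gave 3 of the called genes. Ndufv3, a small accessory subunit of this arm, read 2057, 3080 and 1940 units on the vector arrays. It read 3829, 3338 and 4027 in alpha, 3639, 4518 and 4092 in beta, 2340, 2714 and 2472 in delta and 3604, 4447 and 3018 in epsilon cells. The alpha and beta arrays all lay above the vector arrays, while epsilon 3 fell below vector 2 and the delta arrays lay among those of vector. Ndufv3 rose in alpha (log2 difference 0.69 ± 0.18 SE, limma adjusted p = 0.0158), in beta (0.82 ± 0.18, adjusted p = 0.0087) and in epsilon cells (0.66 ± 0.18, adjusted p = 0.0197). In delta cells the difference was 0.12 (adjusted p = 0.993). The alpha call was lost without vector 1, vector 3 or alpha 3 (adjusted p = 0.0698, 0.084 and 0.0658) and the epsilon call without vector 1, vector 3 or epsilon 2 (0.0794, 0.0978 and 0.0924). Without the 5 arrays numbered 1, the adjusted p was 0.169 in alpha, 0.0735 in beta and 0.149 in epsilon.

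Ndufv2, an iron-sulphur subunit beside the NADH site, read 8759, 10290 and 10460 units in vector cells. It read 12780, 12890 and 13920 in alpha, 12300, 16630 and 14430 in beta, 9771, 10390 and 10690 in delta and 11350, 15720 and 14330 in epsilon cells. All alpha, beta and epsilon arrays were higher than all vector arrays. Ndufv2 rose in beta (0.55 ± 0.14, adjusted p = 0.0205) and epsilon cells (0.48 ± 0.14, adjusted p = 0.0268), and its difference in alpha was 0.43 (adjusted p = 0.0523). Both calls were lost without vector 1 (0.0908 and 0.115), the beta call without beta 2 or 3 (0.1 and 0.0691) and the epsilon call without epsilon 2 or 3 (0.115 and 0.0918).

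Ndufs1, the largest iron-sulphur subunit of complex I, read 7713, 8167 and 7723 units in vector cells, within a narrow band. It read 10060, 10420 and 10920 in alpha, 10400, 10020 and 10380 in beta, 7440, 9486 and 7931 in delta and 9102, 12500 and 9604 in epsilon cells. The alpha, beta and epsilon arrays were all above vector. Ndufs1 rose in alpha cells (0.41 ± 0.13, adjusted p = 0.0434). Its differences in beta (0.38, adjusted p = 0.0775) and epsilon (0.39, adjusted p = 0.0515) were not called. The alpha call was lost without any of 11 of the 15 arrays, every vector, alpha and beta array among them and also delta 3 and epsilon 3 (adjusted p up to 0.135).

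The other called subunits of complex I belong to its membrane arm or to the joint between the arms. Ndufa9, an accessory subunit near the ubiquinone site, read 7018, 9282 and 7759 units in vector cells. It read 11280, 14240 and 15660 in alpha, 10320, 16120 and 13920 in beta, 9097, 10980 and 9540 in delta and 10610, 15770 and 13330 in epsilon cells. The lowest alpha, beta and epsilon arrays, each numbered 1, were still above the highest vector array, and only delta overlapped vector. Ndufa9 rose 1.71-fold in alpha (0.77 ± 0.18, adjusted p = 0.00859), 1.66-fold in beta (0.73 ± 0.18, adjusted p = 0.0189) and 1.64-fold in epsilon cells (0.71 ± 0.18, adjusted p = 0.0138). In delta cells it was 0.30 higher with an adjusted p of 0.899. The alpha call held in all 15 fits that left out 1 array (adjusted p up to 0.0489) and in the 12 other alternatives with a value for it (up to 0.0353). The beta call was lost without vector 1 or 3 (0.0815 and 0.0657) and without beta 2 or 3 (0.0945 and 0.0755), and the epsilon call without vector 1 or epsilon 2 (0.0634 and 0.0681).

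Ndufb11, a membrane arm subunit encoded on the X chromosome, read 8069, 9189 and 8819 units in vector cells. It read 10720, 9785 and 12040 in alpha, 10790, 13350 and 11290 in beta, 9369, 8425 and 8866 in delta and 10720, 13160 and 11550 in epsilon cells. The alpha, beta and epsilon arrays lay above all vector arrays, and delta overlapped them. Ndufb11 rose in beta (0.44 ± 0.13, adjusted p = 0.0375) and epsilon cells (0.44 ± 0.13, adjusted p = 0.024), and in alpha its difference was 0.32 (adjusted p = 0.112). The beta call was lost without vector 1, vector 3, beta 2, beta 3, delta 3 or epsilon 3 (adjusted p from 0.0504 to 0.158). The epsilon call was lost without vector 1, vector 3, epsilon 2 or epsilon 3 (0.0938, 0.0599, 0.0994 and 0.0569).

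Ndufa3, a small membrane arm subunit, read 7467, 9758 and 7805 units in vector cells, and its probe set carries the suffix f. It read 9709, 10710 and 11900 in alpha, 9762, 14380 and 10040 in beta, 9747, 8463 and 8194 in delta and 11060, 12390 and 12530 in epsilon cells. Beta and epsilon lay above vector, with beta 1 only just above vector 2, and alpha 1 fell just below vector 2. Ndufa3 rose in epsilon cells (0.53 ± 0.16, adjusted p = 0.0269), and its differences were 0.37 in alpha (adjusted p = 0.132) and 0.44 in beta (adjusted p = 0.0931). The call was lost without vector 1, vector 3, epsilon 2 or epsilon 3 (0.107, 0.0954, 0.0757 and 0.0888).

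**Figure D3:**
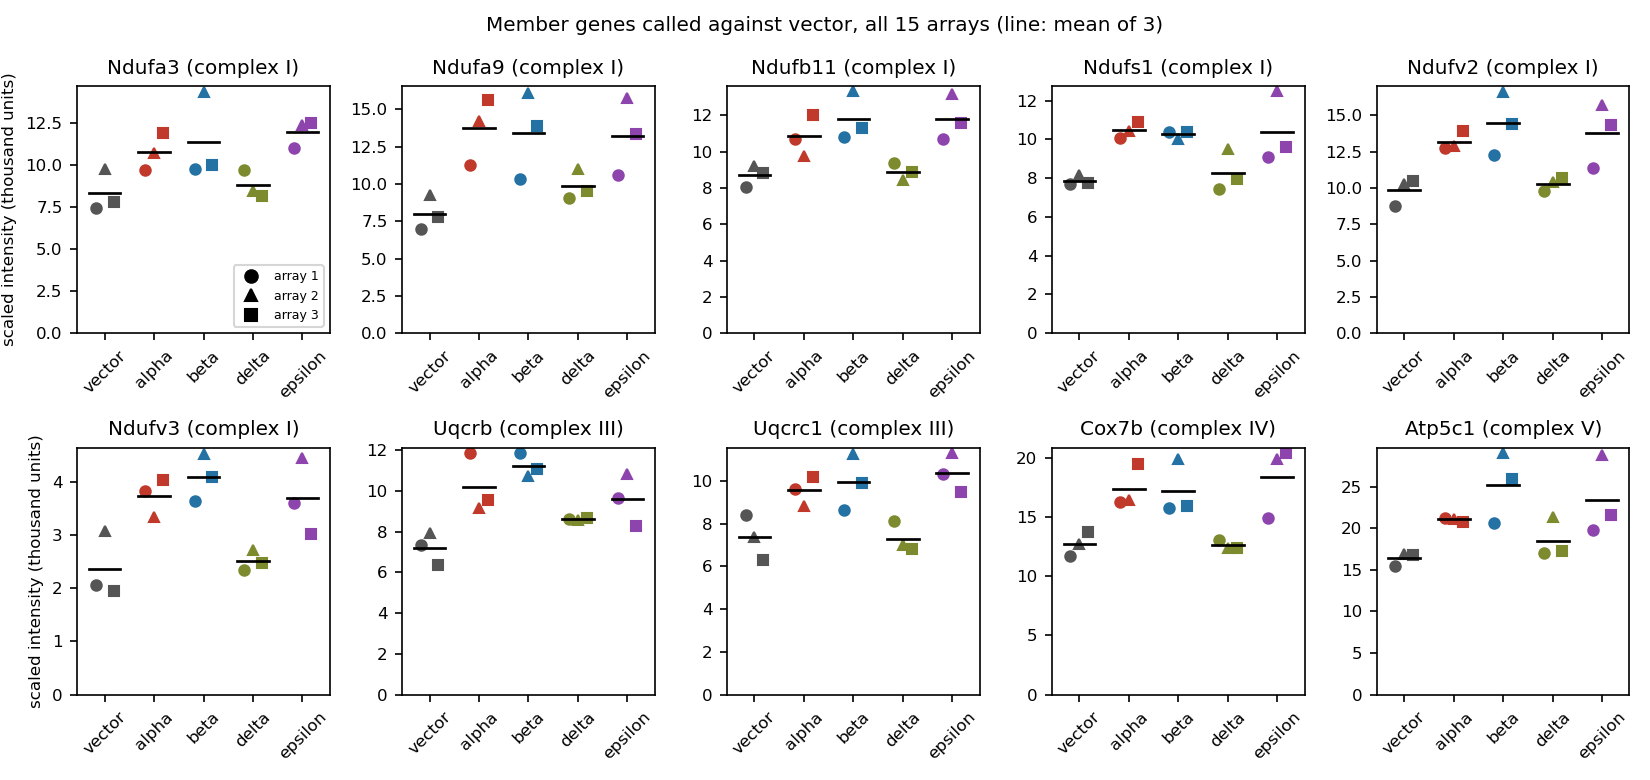
Scaled intensity of the 10 member genes called against vector, on a linear axis from 0, on each of the 15 arrays; circles, triangles and squares are arrays 1, 2 and 3, and the line is the mean of 3. Delta arrays overlap those of vector in every panel but the Uqcrb and Atp5c1 ones, and in the Ndufa9 panel the lowest alpha, beta and epsilon arrays are the circles.

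The brightest complex I probe set was that of Ndufb5, another membrane arm subunit, which carries the suffix f. It read 22060, 29830 and 23340 units in vector, 27730, 32270 and 33970 in alpha, 28790, 39030 and 31680 in beta, 25890, 28620 and 23610 in delta and 29650, 38350 and 31350 in epsilon cells. Vector 2 overlapped every group, and the differences of 0.33, 0.40, 0.06 and 0.41 were not called (adjusted p = 0.193, 0.122, 0.996 and 0.0871). Ndufa10, a membrane arm subunit among the members with the smallest p in delta cells, was 0.26 lower there (adjusted p = 0.938) and was called in no group. It read 2206, 2295 and 2602 units in vector, 2210, 2295 and 2395 in alpha, 2485, 1805 and 2143 in beta, 2380, 1578 and 2026 in delta and 3067, 2026 and 2742 in epsilon cells, so all groups overlapped. The assembly factors Ndufaf1 and Ndufaf4, which help to build complex I and are not part of it, were called in no group. Ndufaf4 read 693.5 to 845.7 units in vector and 865.7 to 1111 in alpha, 951.6 to 1304 in beta, 469.7 to 988.3 in delta and 992.6 to 1360 in epsilon cells. Its differences of 0.42, 0.63 and 0.67 in alpha, beta and epsilon had adjusted p of 0.406, 0.205 and 0.137. Ndufaf1, the brighter of the pair, read 1394, 1556 and 1056 units in vector, 1341, 1801 and 1111 in alpha, 1340, 1747 and 1721 in beta, 1449, 1349 and 1175 in delta and 1408, 1643 and 1223 in epsilon cells, with all groups overlapping.

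In complex III, Uqcrb and Uqcrc1 were called. Uqcrb, a small subunit close to the ubiquinone-binding part of cytochrome b, read 7348, 7939 and 6352 units in vector cells on a probe set with the suffix f. It read 11850, 9174 and 9567 in alpha, 11840, 10710 and 11060 in beta, 8616, 8576 and 8673 in delta and 9648, 10830 and 8292 in epsilon cells. All 4 C/EBP groups, delta included, lay above all vector arrays. Uqcrb rose 1.56-fold in beta (0.64 ± 0.13, adjusted p = 0.00549), 1.41-fold in alpha (0.50 ± 0.13, adjusted p = 0.0176) and 1.33-fold in epsilon cells (0.41 ± 0.13, adjusted p = 0.046). In delta cells the difference of 0.26 ± 0.13 had the smallest p of all members there and was not called (adjusted p = 0.826). The beta call held in all 15 fits that left out 1 array and had an adjusted p of 0.0614 without the 5 arrays numbered 1. The alpha call was lost without vector 3 or alpha 1 (0.0914 and 0.0921). The epsilon call was lost without any of 11 arrays, among them vector 1 and 3, alpha 3, epsilon 1 and 2 and every beta and delta array (adjusted p up to 0.182), and under quantile normalization (0.0894).

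Uqcrc1, a core protein on the matrix side of the complex, read 8409, 7395 and 6298 units in vector cells. It read 9631, 8852 and 10200 in alpha, 8657, 11290 and 9899 in beta, 8114, 6985 and 6802 in delta and 10350, 11320 and 9495 in epsilon cells. Alpha, beta and epsilon lay above vector, with alpha 2 and beta 1 closest to vector 1, and delta lay within the vector range. Uqcrc1 rose in epsilon cells (0.50 ± 0.14, adjusted p = 0.0198), and its differences were 0.38 in alpha (adjusted p = 0.0795) and 0.43 in beta (adjusted p = 0.0608). The call was lost without vector 3 or epsilon 2 (0.103 and 0.0761). The second core protein, Uqcrc2, read 3086 to 4186 units in vector and 5098 to 7839 in epsilon cells without overlap, and its difference of 0.67 was not called (adjusted p = 0.0657).

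The brightest complex III probe set, of Uqcrq, stood on the other side of 0. Uqcrq, a small subunit bound to cytochrome b, read 41850, 50980 and 41690 units in vector, 33770, 34470 and 39010 in alpha, 35830, 45090 and 41230 in beta, 40960, 46280 and 41350 in delta and 30820, 42060 and 35460 in epsilon cells. Only the alpha arrays lay wholly below vector. Its differences of -0.32 in alpha (adjusted p = 0.152) and -0.32 in epsilon (adjusted p = 0.14) were not called, though they were under the other scalings given above. Uqcrh, the hinge protein of the cytochrome c1 region whose promoter is printed above, read 21800 to 28240 units in vector and 23290 to 35390 over the C/EBP arrays, and was called in no group.

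In complex IV, Cox7b was the called gene. Cox7b, a small nuclear subunit encoded on the X chromosome, read 11680, 12760 and 13750 units in vector cells. It read 16250, 16470 and 19490 in alpha, 15730, 19890 and 15970 in beta, 13070, 12430 and 12400 in delta and 14930, 19880 and 20440 in epsilon cells. Every alpha, beta and epsilon array was above every vector array, and delta lay inside the vector range. Cox7b rose in alpha (0.45 ± 0.14, adjusted p = 0.0409) and epsilon cells (0.52 ± 0.14, adjusted p = 0.0173), and its difference in beta was 0.43 (adjusted p = 0.0686). The alpha call was lost without any of 10 of the 15 arrays, all those of vector, alpha and delta and beta 3 (adjusted p up to 0.173). The epsilon call was lost without vector 1, epsilon 2 or epsilon 3 (0.0728, 0.0676 and 0.0855).

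Most of the subunits of complex IV stayed near vector. Cox6c, the brightest, read 37840, 52000 and 41930 units in vector, 37050, 41090 and 39490 in alpha, 39700, 45640 and 43180 in beta, 43090, 45490 and 42230 in delta and 36620, 44750 and 41140 in epsilon cells, on a probe set with the suffix f. All groups overlapped, and the differences ran from -0.15 to 0.00 with adjusted p of at least 0.526. Cox6a2, the isoform known from heart and skeletal muscle, read 1821, 2387 and 1599 units in vector, 971.8, 1343 and 1303 in alpha, 1585, 834 and 925.5 in beta, 1550, 1252 and 1385 in delta and 1283, 981.8 and 1674 in epsilon cells. Alpha, beta and delta lay below vector, with beta 1 only just below vector 3, and epsilon 3 overlapped. The differences of -0.68, -0.84, -0.46 and -0.57 in alpha, beta, delta and epsilon were not called (adjusted p = 0.111, 0.0623, 0.898 and 0.162).

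Cox6b2, annotated as the testis isoform of subunit VIb, had 2 tested probe sets that went different ways. The brighter, with the suffix r, read 3511, 2930 and 4169 units in vector, 2658, 5008 and 4671 in alpha, 2679, 3184 and 3233 in beta, 2900, 2838 and 2773 in delta and 5206, 4438 and 6367 in epsilon cells. Epsilon lay above vector and delta below it. The probe set differed among the 5 groups by the moderated F-test (adjusted p = 0.0314). That call was lost without beta 1 (0.0515), delta 1, 2 or 3 (0.0545, 0.0596 and 0.0678), epsilon 1 (0.071) or epsilon 3 (0.132), under quantile normalization (0.0582), without a filter (0.121) and without a trend (0.059). Against vector its difference of 0.59 in epsilon cells was not called (adjusted p = 0.0655). The dimmer one, with the suffix f, read 909, 1148 and 948.9 units in vector and 1056, 632.7 and 336.4 in epsilon cells, a difference of -0.71 (adjusted p = 0.255).

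In complex V, Atp5c1 was called on 1 of its 2 tested probe sets. Atp5c1 encodes the gamma subunit, the turning stalk of the enzyme. The brighter probe set, with the suffix g, read 15420, 16880 and 16830 units in vector, 21280, 21160 and 20720 in alpha, 20560, 29010 and 25950 in beta, 16990, 21300 and 17260 in delta and 19720, 28750 and 21640 in epsilon cells. All 12 C/EBP arrays lay above the vector arrays. On this probe set Atp5c1 rose in beta (0.61 ± 0.15, adjusted p = 0.0196) and epsilon cells (0.50 ± 0.15, adjusted p = 0.0368), with 0.36 in alpha (adjusted p = 0.141) and 0.17 in delta (adjusted p = 0.978). The second probe set read 18840, 14140 and 15960 units in vector, 21380, 12220 and 11760 in alpha, 21050, 15130 and 17690 in beta, 21510, 13830 and 13480 in delta and 16640, 13680 and 12370 in epsilon cells. On it all groups overlapped and the differences were -0.16, 0.14, -0.03 and -0.20, with adjusted p of at least 0.616. The beta call was lost without vector 1, vector 3, beta 2 or beta 3 (0.0717, 0.051, 0.0944 and 0.0785). The epsilon call was lost without vector 1, 2 or 3 or epsilon 2 or 3 (0.114, 0.0543, 0.0803, 0.17 and 0.0606).

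The brightest complex V probe set was that of Atp5md, a small membrane subunit also known as DAPIT, with the suffix f. It read 27930, 50260 and 30400 units in vector, 29860, 32280 and 43290 in alpha, 30080, 34690 and 31200 in beta, 33760, 31510 and 29640 in delta and 29720, 44690 and 41710 in epsilon cells. The vector arrays alone spanned the other groups, and the differences ran from -0.15 to 0.13 (adjusted p of at least 0.741). Atp5a1, the alpha subunit of the catalytic head, read 20690 to 27210 units in vector, 27820 to 30670 in alpha, 26800 to 34070 in beta, 23060 to 26650 in delta and 25490 to 37780 in epsilon cells. Its differences of 0.37, 0.41, 0.10 and 0.42 had adjusted p of 0.132, 0.108, 0.994 and 0.0739. Atp5o, the peripheral stalk subunit that confers oligomycin sensitivity, read 5797 to 8317 units in vector and 8704 to 11700 in alpha without overlap, and its 0.60 was not called (adjusted p = 0.097).

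Besides Atp5c1 and Cox6b2, 3 genes had several tested probe sets. Those of Ndufb2 differed by -0.04, 0.37 and 0.35 from vector in beta cells, those of Atp5d by 0.06, 0.19 and 0.25, and those of Atp5l by 0.31 and -0.28, and none was called in any group. The 7 genes with no tested probe set were Ndufa12, Ndufc2 and Ndufs4 of complex I, Cox5a, Cox7a1 and Cox8a of complex IV and Atp5j2 of complex V. Of the 94 member probe sets 35 carry a suffix f, s, i, r or g, which marks probes that may be shared with related sequences or that were chosen under relaxed rules, and 24 of these were tested. Signals of such probe sets cannot be tied to 1 transcript with certainty.

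The C/EBP groups were also set against each other in the same fit, which does not use the vector arrays for the difference itself. Of the 6 pairs, alpha against beta, alpha against delta, alpha against epsilon and beta against epsilon gave 0 member calls by limma (2.86%, 8.4%, 1.31% and 2.34% of all probe sets). Members with an unadjusted p under 0.05 in these 4 numbered 2, 10, 1 and 3. On the higher side were 0%, 13.4%, 0% and 2.99% of members, against 4.62%, 9.55%, 3.72% and 6.78% of all probe sets. On the lower side were 2.99%, 1.49%, 1.49% and 1.49% of members, against 7.41%, 11.4%, 6.33% and 7.35% of all. The 4 calls over all 6 pairs became 1 without delta 2 or delta 3, 2 without delta 1 or epsilon 3, and 7 without alpha 2, epsilon 1 or vector 2. Over 13 alternatives, given at the end, they ran from 3 to 49, and the fit with a term for the array number made more. Beta against delta gave 1 higher member (1.49%, against 2.11% of all). Delta against epsilon gave 3 lower (4.48%, against 3.81%), near the share of all probe sets. Without a test, the arrays of beta lay wholly above those of delta for 22 member probe sets (32.8%, against 13.3% of all), and the arrays of epsilon for 18 (26.9%, against 16.4%). The member called in beta against delta was Ndufv3, with 0.70 ± 0.18 (adjusted p = 0.034), lost without beta 2, beta 3 or any delta array (0.141, 0.105, 0.119, 0.065 and 0.104).

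Delta lay below epsilon for Cox7b (-0.53 ± 0.14, adjusted p = 0.0263), Uqcrc1 (-0.51 ± 0.14, adjusted p = 0.0302) and Cox6b2 on the brighter probe set (-0.90 ± 0.21, adjusted p = 0.0129). All 3 delta arrays were below all 3 epsilon arrays for each of them. The Cox7b call was lost without any delta array or without epsilon 2 or 3 (0.0582, 0.0793, 0.0919, 0.096 and 0.127), the Uqcrc1 call without delta 2, delta 3, epsilon 1 or epsilon 2 (0.0977, 0.128, 0.0585 and 0.107), and the Cox6b2 call without epsilon 3 (0.0746). Across the 5 groups 9 member probe sets differed by the F-test (13.4%, against 16.5% of all), those of Ndufa9, Ndufb11, Ndufv2, Ndufv3, Uqcrb, Uqcrc1, Cox7b, Atp5c1 and Cox6b2. This count was 4 without vector 1 or vector 3 and 5 without delta 3, and Cox7b and Ndufv3 stayed called in all 15 fits that left out 1 array. Across the 4 C/EBP groups it was the brighter Cox6b2 probe set alone (1.49%, against 10.2%; adjusted p = 0.0265), lost without any delta array or epsilon 1 or 3 (adjusted p up to 0.115). Both shares were below those of all probe sets in this fit. Over 13 alternatives, given at the end, the count ran from 6 to 29 across the 5 groups and from 0 to 23 across the 4 C/EBP groups. The fit with a term for the array number, 1 of these, made more calls in both. The shares of all probe sets in these alternatives are not given here.

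The arrays numbered 1, those whose titles carry no number, were compared with arrays 2 and 3 with the group in the fit, and the labels do not say what the number stands for. Members were lower on the arrays numbered 1 for 20 of 67 probe sets (29.9%, against 13.5% of all) and higher for 2 (2.99%, against 3.03%). Other lists, read by gene, had lower calls there too. These were 13 of 57 mitochondrial ribosomal protein genes (22.8%), 6 of 22 import genes (27.3%) and 3 of 11 assembly factors (27.3%). Of 15 tricarboxylic acid cycle and pyruvate dehydrogenase genes 2 were lower (13.3%), of 9 carriers 1 (11.1%), of 10 regulators 0 and of 10 fibroblast markers 5 (50%). Higher in these lists were 1 ribosomal protein gene and 1 regulator. The median over the 60 member genes was -0.20, against -0.08 over all genes, and 54 of the 60 lay below 0. The brightest 20% of all probe sets had a median of -0.16, and its 39 members -0.21. The count of lower members was 13 under quantile normalization, 12 under the authors' scaling alone and 12 under the median log2 ratio, where 6.23%, 7.76% and 8.6% of all probe sets were lower and 5.07%, 5.82% and 4.47% higher. Median differences over the member probe sets, -0.19 with the scaling used here, were -0.05, -0.10 and -0.13 under these 3 scalings, and those over all probe sets -0.07, 0.00, 0.03 and 0.00 in the same order. The 22 calls in both directions became 13 without beta 1 or epsilon 1 and 14 without beta 2.

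Atp5e, the epsilon subunit of the complex V stalk, differed most. It read 1283, 3633 and 2498 units on vector arrays 1, 2 and 3, 1265, 2545 and 2742 in alpha, 1596, 3669 and 3574 in beta, 1469, 2963 and 2723 in delta and 1202, 3077 and 3500 in epsilon cells. Array 1 was the lowest in all 5 groups, and the mean of 1363 units on arrays 1 against 3092 on arrays 2 and 3 gave -1.18 ± 0.10 (adjusted p = 1.07e-05). Its differences between C/EBP groups and vector ran from -0.13 to 0.28 and were not called. Array 1 was likewise the lowest in all 5 groups for Ndufc1, a membrane arm subunit of complex I (-0.72 ± 0.11, adjusted p = 0.000664), Uqcr11, a small subunit of complex III (-0.62 ± 0.10, adjusted p = 0.000661), and Ndufb7, on the outer face of the membrane arm (-0.52 ± 0.09, adjusted p = 0.00106). Cox6a1, the widespread isoform of its complex IV subunit, fell by 0.36 ± 0.06 (adjusted p = 0.000693), from a mean of 36240 units on arrays 2 and 3 to 28120 on arrays 1. Of the genes called against vector, Ndufa9 (-0.37, adjusted p = 0.00294) and Ndufv2 (-0.23, adjusted p = 0.0289) were also lower on arrays 1.

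Probe sets of 1 gene parted here. The second Atp5c1 probe set was the highest on array 1 in all 5 groups (0.51 ± 0.08, adjusted p = 0.000665), while the brighter one was 0.21 lower (adjusted p = 0.0595). For Ndufb2, a membrane arm subunit, 1 probe set was higher (0.60 ± 0.18, adjusted p = 0.0293) and another lower (-0.48 ± 0.07, adjusted p = 0.000661). On the control probe sets, the signal ratio of the 3′ to the 5′ end of Gapdh was 0.891 to 0.971 on arrays 1 and 0.903 to 0.986 on the others. The same ratio of actin was 1.02 to 1.2 against 1.06 to 1.44, and deposited medians were 1122.25 to 1149.7 against 992.25 to 1128.45. The part of these measures in the difference was not tested.

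**Figure D4:**
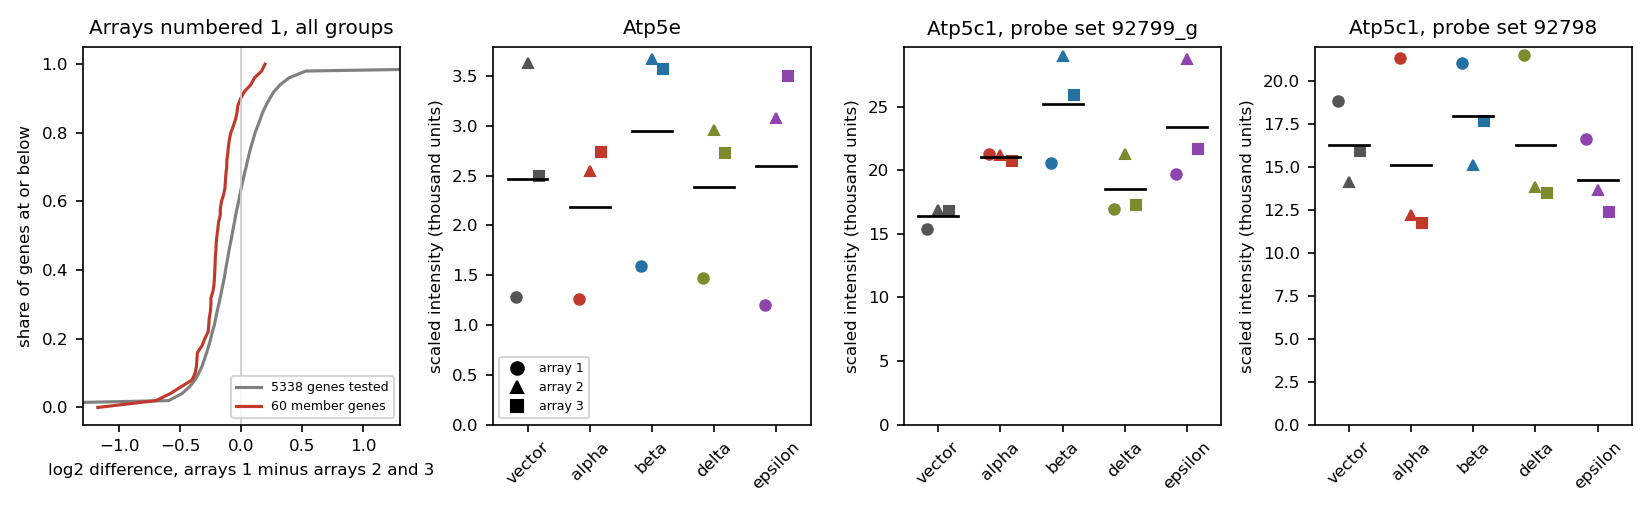
Left, the share of the 60 member genes and of all 5338 genes at or below each log2 difference between arrays numbered 1 and arrays 2 and 3. The other panels give Atp5e and both Atp5c1 probe sets on a linear axis from 0 on each array (circles, triangles and squares for arrays 1, 2 and 3, line for their mean), and the circles are lowest for Atp5e in every group and highest for the second Atp5c1 probe set.

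Other mitochondrial genes from lists of the pathway were read in the same fit, by gene. Their counts stand beside 7.17%, 5.13% and 9.38% of all probe sets called higher in alpha, beta and epsilon cells and 7.15%, 4.18% and 6.91% called lower. Of 4 complex II genes limma called 0 in each group, with an unadjusted p under 0.05 for 0, 2, 0 and 1 in alpha, beta, delta and epsilon, and medians of 0.10, 0.20, 0.01 and 0.08. Of 3 genes for cytochrome c, c1 and the haem lyase, Hccs, the lyase, rose in alpha cells (0.79, adjusted p = 0.0122). Of 11 assembly factors of complexes III and IV, Higd1a rose in alpha (0.57, adjusted p = 0.00937) and epsilon (0.70, adjusted p = 0.00202), and the copper chaperone Cox17 in beta cells (0.34, adjusted p = 0.0454). Of 15 genes of the tricarboxylic acid cycle and pyruvate dehydrogenase, 3 rose in alpha (20%), 1 in beta (6.67%, near the share of all probe sets) and 3 in epsilon cells (20%), with Suclg1, a succinyl-CoA ligase subunit, in each (0.74, 0.61 and 0.63; adjusted p = 0.00221, 0.0144 and 0.00715). Of 9 carriers, 1 rose in alpha (11.1%), 1 in beta (11.1%) and 3 in epsilon cells (33.3%), the ADP/ATP carrier Slc25a5 in each. Of 10 regulators, Ssbp1, which binds single-stranded mitochondrial DNA, and Yy1 rose in alpha and epsilon cells (in alpha 0.49 and 0.90, adjusted p = 0.00914 and 0.00556, and in epsilon 0.50 and 0.91, adjusted p = 0.00851 and 0.00496).

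The 57 genes of mitochondrial ribosomal proteins had 5 higher in alpha (8.77%, near the share of all probe sets), 5 in beta (8.77%), 0 in delta and 8 in epsilon cells (14%), and limma called 0 lower in any group (1, 0, 0 and 0 by unadjusted p). Their medians of 0.16, 0.21, 0.01 and 0.19 stand beside 0.12, 0.25, 0.00 and 0.23 for the oxidative phosphorylation genes. Among 22 import genes and matrix chaperones, calls went both ways, with 1 higher (4.55%) and 3 lower (13.6%) in alpha, 2 (9.09%) and 1 (4.55%) in beta and 1 (4.55%) and 2 (9.09%) in epsilon cells. Tomm70a, an import receptor, rose in alpha (0.52, adjusted p = 0.00333), beta (0.60, adjusted p = 0.00206) and epsilon cells (0.54, adjusted p = 0.00272). Hspe1, the chaperonin partner, fell by 0.98 in alpha (adjusted p = 3e-04), by 0.75 in beta (adjusted p = 0.00545) and by 1.20 in epsilon cells (adjusted p = 5.01e-05). No gene of these 8 lists was called by limma in delta cells, where 2 carriers, 1 assembly factor, 1 ribosomal protein gene and 2 import genes had an unadjusted p under 0.05.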

How the data were processed

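Expression was read as the deposited linear intensity per probe set, which the authors made with Affymetrix Microarray Suite, per the labels. The labels also name median normalization and a filter on absent calls. No detection calls were used here, so the filter was one on signal. Symbols came from the platform annotation, in which 10833 probe sets named 1 gene, 396 several and 1193 none. After removal of 66 controls, arrays were rescaled to a common median (the mean over the 15 arrays), floored and taken to log2. R 4.3.3 with limma 3.58.1 fitted all 15 arrays together, each group having its own coefficient (functions lmFit and eBayes, trend on), and gave two-sided moderated tests. Each SE of a log2 difference comes from that fit. The number of arrays limits the precision, and 0 columns of values were left unused.

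The member genes, gene lists and alternatives were chosen with earlier results of these data known. Named with all arrays are members called against vector or in the F-test over 5 groups. Also named so are the 5 with the smallest p where fewer than 5 were called, and the brightest per complex. Of genes whose probe sets disagreed, both Atp5c1 probe sets and the brighter Cox6b2 one are given in full. The dimmer Cox6b2 probe set is given for vector and epsilon alone. Ndufb2, Atp5d and Atp5l, whose probe sets also differed in sign, are given without their arrays. Uqcrc2, Ndufaf4, Uqcrh, Atp5a1, Atp5o and the genes given for arrays numbered 1 were chosen after their values were seen. A planned ranking of genes of like profile is not given, since 5 group means are too few points for a correlation. Titles without a number were taken as array 1. Array numbers were not taken as pairing the samples, because not every same-numbered pair of arrays deviated together with a correlation over 0.1. For number 1, 10 of 10 pairs did (0.22 to 0.44), for number 2, 8 of 10 (0.02 to 0.43) and for number 3, 2 of 10 (-0.07 to 0.12). This rule does not show that the arrays are unpaired, since 13 of 15 correlated best with an array of their own number. Differences between the numbers stayed in the spread of the main fit. The fit was also run on simulated data with independent noise and changes put into the alpha arrays alone. Those data held no effect of the array number, so that run does not bear on such an effect here. Alternatives were other scalings, floors, filters and probe set rules, no trend, array weights, the number as a block, subsets of groups, a threshold of 0.1, the labels' univariate F-test and fits without single arrays or without the arrays numbered 1.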

Additional observations from a re-analysis of the deposited data

Results flagged for a closer look

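Of the members, 4 differed between C/EBP groups when the difference itself was tested by limma (Benjamini-Hochberg over all probe sets). Ndufv3 was higher in beta than in delta cells (adjusted p = 0.034). Cox7b (adjusted p = 0.0263), Uqcrc1 (adjusted p = 0.0302) and the brighter Cox6b2 probe set (adjusted p = 0.0129) were lower in delta than in epsilon cells. That Cox6b2 probe set also differed among the 4 C/EBP groups by the F-test (adjusted p = 0.0265). The arrays that end each of these calls when left out are given with them above.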

How the results depend on the processing

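Without any 1 array, member calls ran from 4 to 10 over the 5 groups (9 with all arrays), 0 to 2 over the 4 C/EBP groups (1), 1 to 6 in alpha (5), 2 to 13 in beta (6), 0 in delta, 0 to 12 in epsilon (9), 1 to 7 over the 6 pairs of C/EBP groups (4) and 13 to 32 for the arrays numbered 1 (22). The median member difference ran from 0.02 to 0.21 in alpha, 0.14 to 0.39 in beta, -0.08 to 0.10 in delta and 0.13 to 0.39 in epsilon.

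In the order 5 groups, 4 C/EBP groups, alpha, beta, epsilon and pairs, calls were 17, 13, 15, 21, 14 and 33 under quantile normalization, 16, 7, 15, 16, 17 and 26 under the authors' scaling alone, and 29, 23, 11, 24, 21 and 49 with array weights, which also gave 35 for the arrays numbered 1. With the array number as a replicate block, which was not taken as a pairing, they were 24, 14, 14, 23, 26 and 38, and 13 of 15 arrays correlated best with an array of their own number. Under the block, Uqcrq was called lower in alpha and epsilon cells (adjusted p = 0.0204 and 0.0199) and Cox6a2 in beta (0.0461). Under array weights, Cox6a2 was called lower in beta (0.00992) and the dimmer Cox6b2 probe set in epsilon cells (0.0487). Scaling by the median log2 ratio gave 4 over the C/EBP groups, 13 in beta (5.9% of all probe sets higher and 5.23% lower), 11 over pairs and 14 for the arrays numbered 1. Without a trend, calls were 0 over the C/EBP groups, 3 in alpha and 14 for the arrays numbered 1. The count over the C/EBP groups was 0 with no filter, 2 with a filter above the median on all arrays and 2 with these groups alone in the fit. A fit of vector and 1 group, with fewer arrays to estimate the spread, gave 3 in alpha, 3 in beta and 1 in epsilon. At a threshold of 0.1 there were 4 over the C/EBP groups, 8 in alpha, 17 in beta, 16 in epsilon and 18 over pairs. Without the 5 arrays numbered 1 there was 1 in alpha. The cause of these shifts was not tested where the alternative does not itself drop arrays or change the threshold. Delta kept 0 calls in all 13 alternatives and 15 fits without 1 array. The group medians moved by less than 0.13 to 0.19, the pooled SD of the vector arrays and those of the group, in 11 alternatives and the 15 fits. The delta arrays alone had an SD of 0.06, and the delta median moved by more than that without vector 1 or vector 2.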
